A study of Homo sapiens with 66 samples.

Results

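The protein kinase C (PKC) and protein kinase D (PKD) genes PRKCA, PRKCB, PRKCD, PRKCE, PRKCH, PRKCQ, PRKCI, PRKCZ, PRKD2 and PRKD3 were followed in 11 AML cell lines, before and after etoposide. They were chosen by gene symbol, with no measured value used, and make up 10 of the 57992 gene identifiers analysed. RNA was sequenced from F36P, HL60, KASUMI1, MOLM13, MONOMAC6, MV411, NB4, NOMO1, OCIAML2, OCIAML3 and THP1 cells. They were kept for 24 h without etoposide (untreated) or with etoposide, a topoisomerase II poison, at the IC50 of that line. The dose therefore differs between lines. Serum and supplements of the medium differed as well. F36P was grown with granulocyte-macrophage colony stimulating factor, and MONOMAC6 with insulin, pyruvate and amino acids. Each group held 3 libraries, described as biological replicates, and each library came from cells of 3 pooled wells, giving 66 libraries in all. Each line is a single established culture without normal marrow cells beside it.

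Libraries held between 17997404 and 24101670 reads on genes, with a median of 20241014. The myeloid markers CD33 and SPI1 were read in all 11 untreated lines, with lowest means of 65.6 and 105.7 CPM (reads scaled to library depth). CEBPA, also on the myeloid list, had a median of 269 CPM over the lines but only 0.544 in F36P. The damage response gene CDKN1A was called induced in 10 of the 10 lines other than OCIAML2. In HL60, at 0.212 CPM untreated, it passed the filter on low counts through its etoposide libraries, which partly fixes that call. MDM2, on the same list, was called induced in 3 of the 10 lines. Its log2 fold change ran from -0.33 in NB4 to 2.59 in OCIAML3. The study discarded the etoposide libraries of OCIAML2 for the quality of their raw reads, and for that reason the counts over lines below cover the other 10 lines, whereas untreated levels cover all 11. In OCIAML2 0 of 13604 genes were called by edgeR, 3 genes (0.0221%) were higher by the adjusted p alone and 0 lower, and CDKN1A went from 45.9 ± 1.77 to 75.9 ± 3.81 CPM (SD, n = 3 libraries, as for every ± below). None of the 10 members had an unadjusted p under 0.05 there.

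PKC and PKD enzymes are serine/threonine kinases that carry signals from membrane receptors. Phospholipase C cleaves a membrane lipid into diacylglycerol and a calcium-releasing sugar phosphate, and diacylglycerol then draws the kinases to the membrane. Conventional isoforms, here PRKCA and PRKCB, need calcium and diacylglycerol, the nPKC isoforms (PRKCD, PRKCE, PRKCH and PRKCQ) need diacylglycerol alone, and atypical isoforms (PRKCI and PRKCZ) need neither and act in polarity complexes. The PKD enzymes PRKD2 and PRKD3 bind diacylglycerol and are switched on by nPKC isoforms. In myeloid cells these kinases are best known for the differentiation that phorbol esters, which mimic diacylglycerol, bring about.

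The family was led in untreated cells by PRKCD and PRKCB. Per kilobase of exon, averaged over the 11 lines, PRKCD stood at 34.6 CPM per kb and PRKCB at 16.8, above 91.3% and 79.7% of the genes averaging 1 CPM or more. PRKD3 (8.27), PRKCI (7.02), PRKD2 (6.55), PRKCQ (5.66) and PRKCA (5.10) lay in the middle of that scale. PRKCE (0.815), PRKCZ (0.541) and PRKCH (0.195) were the scarcest, and PRKCH had 2828 reads in all 66 libraries together, against 227453 for PRKCB.

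Every member differed in untreated level between the 11 lines by the edgeR F-test (10 of 10 members, adjusted p of 8.79e-10 or less), as did 99.4% of all genes tested. Over single pairs of lines, 66.8% of all comparisons passed an adjusted p of 0.05, and of the 55 pairs the members passed between 32 (PRKD3) and 51 (PRKCD). What follows gives the order of the lines for each member, in CPM scaled over the 33 untreated libraries.

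**Figure D1:**
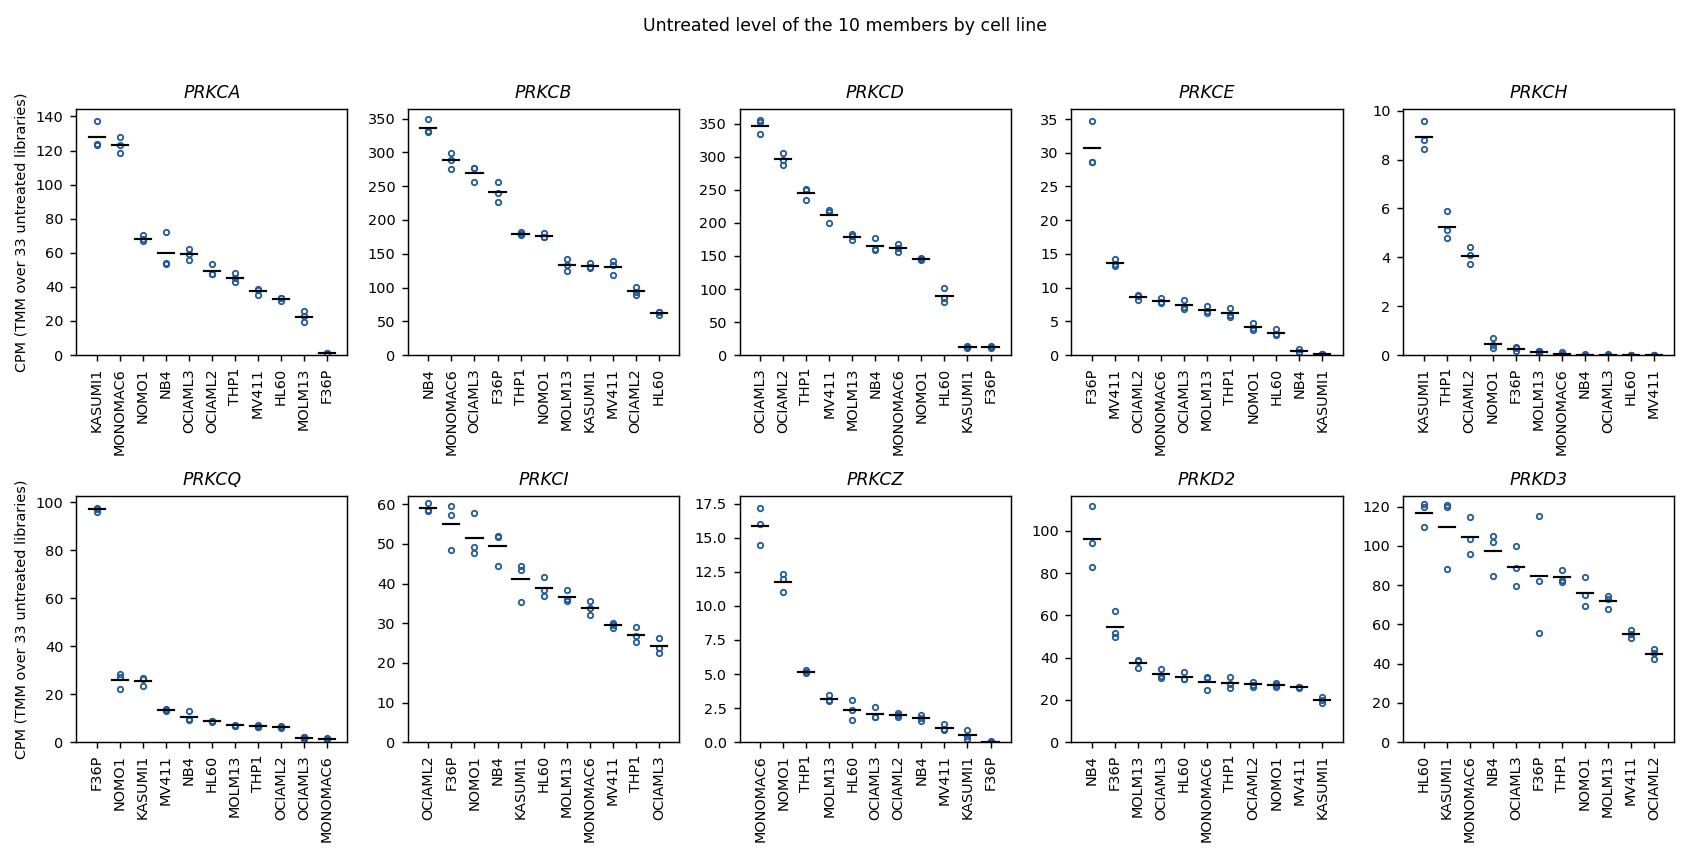
Untreated level of each member (y axis, CPM) in the 11 lines (x axis, ordered from highest to lowest mean within each panel), with 1 open circle per library and a bar at the mean of 3. PRKCE and PRKCQ were highest in F36P, where PRKCA, PRKCD and PRKCZ were lowest, and PRKCH was near 0 in 8 of the 11 lines.

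Of the conventional isoforms, PRKCA (ENSG00000154229.11, chr17:66302613-66810743, plus strand of GRCh38) was highest in KASUMI1 at 128 ± 8.2 CPM and MONOMAC6 at 123 ± 4.6, which did not differ from each other. F36P was far below the rest, at 1.19 ± 0.30 CPM, 108-fold under KASUMI1. PRKCB (ENSG00000166501.12, chr16:23835983-24220611, plus strand), the isoform known for its part in B cell receptor signalling, spread over a narrower range, from 337 ± 11 CPM in NB4 to 62.7 ± 2.4 in HL60. NB4 was above the next line, MONOMAC6 at 288 ± 12 CPM, and OCIAML2 at 94.4 ± 5.4 and HL60 each differed from the line above, whereas MONOMAC6, OCIAML3 and F36P formed a run without a difference between neighbours.

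The nPKC isoforms gave some of the widest ranges. PRKCD (ENSG00000163932.13, chr3:53156009-53192717, plus strand), an isoform linked to apoptosis after DNA damage, reached 347 ± 11 CPM in OCIAML3, 296 ± 8.8 in OCIAML2 and 245 ± 8.9 in THP1. It was at 12.1 ± 1.1 CPM in KASUMI1 and 12.04 ± 1.2 in F36P, which did not differ. PRKCE (ENSG00000171132.13, chr2:45651345-46187990, plus strand) was highest in F36P at 30.7 ± 3.5 CPM and nearly missing from NB4 (0.597 ± 0.29) and KASUMI1 (0.178 ± 0.030).

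PRKCQ (ENSG00000065675.14, chr10:6427143-6580301, minus strand), the isoform of the T cell receptor synapse, stood at 97.0 ± 1.0 CPM in F36P. The next lines, NOMO1 at 25.9 ± 3.2 and KASUMI1 at 25.4 ± 1.8 CPM, did not differ from each other, and OCIAML3 (1.92 ± 0.44) and MONOMAC6 (1.47 ± 0.24) were lowest without differing. PRKCH (ENSG00000027075.13, chr14:61187559-61550976, plus strand) was read mainly in 3 lines, at 8.94 ± 0.60 CPM in KASUMI1, 5.26 ± 0.57 in THP1 and 4.07 ± 0.36 in OCIAML2. The other 8 lines lay at or under 0.451 ± 0.21 CPM and no neighbours among them differed. HL60 and MV411 had 0 reads, which allows up to 0.0492 and 0.0503 CPM over their 3 libraries, for counting error only.

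The atypical and PKD genes gave a flatter picture, apart from PRKCZ. PRKCI (ENSG00000163558.12, chr3:170222424-170305977, plus strand) ranged only from 59.0 ± 1.1 CPM in OCIAML2 to 24.2 ± 1.9 in OCIAML3, and 8 of 10 pairs of neighbours did not differ. PRKCZ (ENSG00000067606.16, chr1:2050411-2185395, plus strand) went from 15.9 ± 1.4 CPM in MONOMAC6 through 11.7 ± 0.68 in NOMO1 and 5.17 ± 0.091 in THP1 to 2 reads in all 3 libraries of F36P. PRKD2 (ENSG00000105287.12, chr19:46674275-46717127, minus strand) was highest in NB4 (96.3 ± 15 CPM) and F36P (54.7 ± 6.6) and lay between 37.3 ± 2.0 and 19.9 ± 1.4 in the others. PRKD3 (ENSG00000115825.9, chr2:37250502-37324833, minus strand) fell off gently from 117 ± 6.4 CPM in HL60 to 45.0 ± 2.7 in OCIAML2, with 9 of 10 pairs of neighbours not different.

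Across the 11 lines the members did not follow a single order. The highest Pearson r between 2 members, on log2(1 + CPM) of the line means, was 0.58 for PRKCQ and PRKCI, and the lowest was -0.76 for PRKCD and PRKCQ, which were at opposite ends in F36P. These points share the scaling of the 33 libraries and serve as a description. By the same measure over the 13672 genes of at least 1 CPM, PRKCH was most like GSTM1 (r = 0.98) and FAM221A (r = 0.94), whose highest line was also KASUMI1. PRKCB was most like ILK (r = 0.92), the pseudogene MORF4L1P1 (r = 0.88) and PLOD1 (r = 0.88).

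With etoposide, the members changed in both directions and mostly by less than 2-fold. Over the 10 lines 93 pairs of a member and a line passed the filter on low counts, which asks for 3 libraries at about 10 reads. In 88 of them both groups met it. The other 5, PRKCZ in F36P and KASUMI1, PRKCH in F36P and NOMO1 and PRKCE in NB4, passed only through the 3 etoposide libraries, so a rise in them is partly fixed by the filter, and 3 of them are among the calls below. Of these, 23 were higher and 18 lower at an adjusted p under 0.05 (edgeR quasi-likelihood test, Benjamini-Hochberg over all genes of the line), beside 27.7% and 24.4% of all gene-line pairs. Calls, which also need a change of over 2-fold, numbered 8 induced and 4 repressed, beside 11.1% and 3.96% of all pairs, and 9 and 2 when scaled by library size alone. That scaling raised the median log2 fold change of all genes by 0.25 in F36P, 0.21 in NB4, 0.17 in KASUMI1, 0.13 in MV411, 0.12 in MONOMAC6 and 0.10 in HL60, and the changes below are relative to the TMM scaling of edgeR. The median log2 fold change was 0.06 over the members and 0.01 over all genes. In these bulk samples fewer cells of a kind and less RNA per cell cannot be told apart.

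Most calls came from F36P and KASUMI1, the lines with the largest shares of all genes called. These lines also had the highest IC50 values in the study and so the highest doses. Line, dose and culture conditions cannot be told apart. In F36P, PRKCA, PRKCH, PRKCZ and PRKD2 were called induced, 4 of 10 members where 24.3% of all genes were, and PRKCB and PRKCE repressed, where 6.67% of genes were. In KASUMI1, PRKCD was called induced (14.6% of genes) and PRKCA and PRKCB repressed (6.52% of genes). PRKCZ was called induced in MV411 (12.5% of genes, with 0 members and 2.63% of genes repressed), and PRKCZ and PRKCE in NB4 (13.2% of genes, with 0 members and 4.82% of genes repressed). No member was called in HL60, MOLM13, MONOMAC6, NOMO1, OCIAML3 or THP1, where in that order 5.34%, 8.59%, 8.53%, 8.34%, 7.18% and 6.38% of genes were induced and 1.24%, 3.37%, 4.47%, 4.43%, 1.36% and 3.46% repressed. Without F36P, a setting added after the values were seen, 4 pairs remained called induced and 2 repressed.

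**Figure D2:**
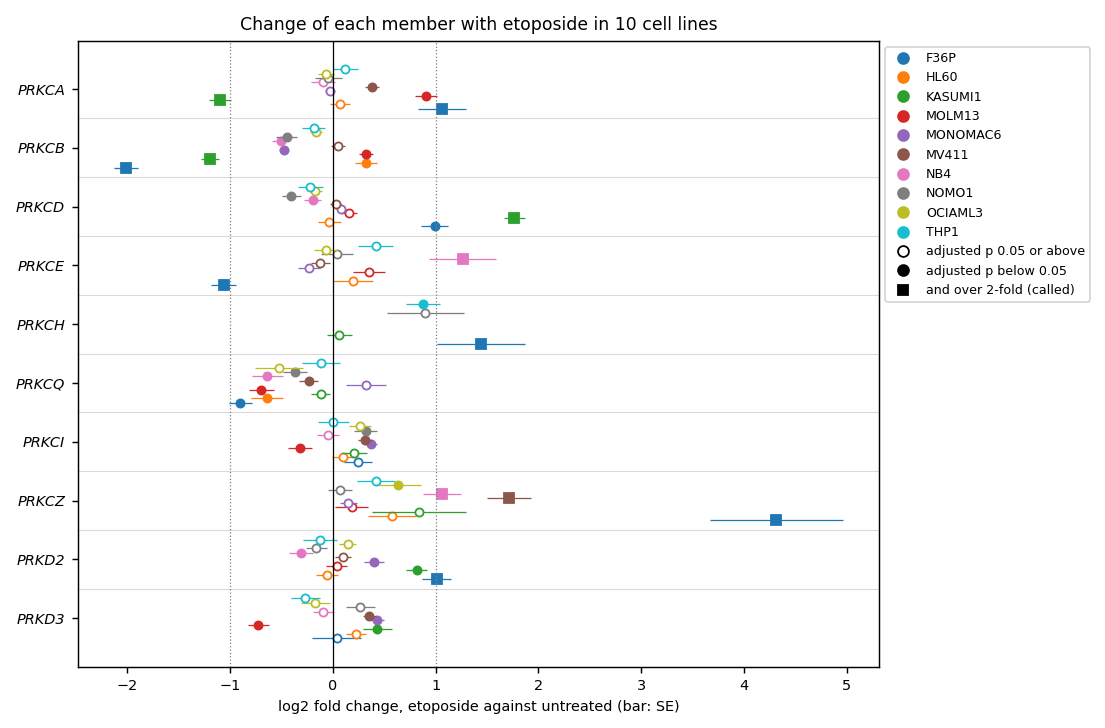
Log2 fold change of each member, etoposide against untreated (x axis, bars give the SE), in 10 lines (colours), with filled points at an adjusted p under 0.05 and squares where the change was also over 2-fold. PRKCZ lay above 0 in 10 of 10 lines and PRKCQ below 0 in 9 of 10, and the dotted lines mark a 2-fold change.

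The fitted change of PRKCZ was above 0 in 10 of 10 lines. The F36P libraries held 0.123, 0 and 0 CPM untreated and 0.674, 0.987 and 0.874 with etoposide, from 2 and 54 reads. The ratio of these reads, with depth on the TMM scale, was 21.5, with a 95% exact interval of 5.66 to 182 for counting error only. All 3 etoposide libraries were above all 3 untreated libraries, but the gene was tested in this line only through its etoposide libraries, and its call is therefore given as a description.

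In MV411, PRKCZ went from 1.42, 1.02 and 0.938 CPM to 3.96, 3.15 and 4.03, a log2 fold change of 1.71 ± 0.22 (SE, as for every log2 fold change below) with an adjusted p of 5.07e-07. In NB4 it went from 2.07, 1.66 and 1.88 CPM to 4.04, 3.82 and 3.87 (log2 fold change 1.06 ± 0.19, adjusted p = 0.00017). The groups did not overlap in either line, and both changes were past 2-fold, but leaving out the second untreated library took NB4 to 0.97, below that limit. OCIAML3 passed the adjusted p alone, with 1.81, 2.54 and 1.86 CPM before and 2.76, 2.84 and 4.06 after (log2 fold change 0.64 ± 0.22, adjusted p = 0.0462).

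In the other lines PRKCZ did not pass the test. Its log2 fold change there was 0.84 in KASUMI1, 0.58 in HL60, 0.42 in THP1, 0.18 in MOLM13, 0.15 in MONOMAC6 and 0.07 in NOMO1. KASUMI1 was called induced without the third untreated library (1.44, adjusted p = 0.0321) or the first etoposide library (1.13, adjusted p = 0.0483). The 2 lines with the highest untreated PRKCZ, MONOMAC6 and NOMO1, thus had the smallest values, with 15.4, 16.9 and 18.1 CPM untreated and 18.6, 18.0 and 19.0 with etoposide in MONOMAC6. Leaving out the first or the third etoposide library turned the sign of the value in NOMO1.

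Over the 10 lines the mean log2 fold change of PRKCZ was 1.00, positive in 10 of 10 lines, with an exact two-sided sign-flip permutation p of 0.00195, the smallest that 10 lines allow, and an adjusted p of 0.00991. At this threshold 17.6% of the 10588 genes tested in all 10 lines were higher and 25.7% lower. Without F36P the mean was 0.63 over 9 lines (adjusted p = 0.0180). PRKCZ passed the filter in F36P and KASUMI1 only through the etoposide libraries. Its positive values in these lines, which enter the mean and the sign-flip p, are thus partly fixed by the filter. KASUMI1 stayed among the 9 lines. PRKCZ shares exon positions with FAAP20, PRKCZ-AS1 and ENSG00000271806 on the opposite strand, which held 32021, 403 and 320 reads in the 66 libraries, and the counts were taken by strand.

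The RefSeq annotation of GRCh38.p14 gives PRKCZ 4 promoter windows. The first, chr1:2050161-2050410 on the plus strand, is shown because PRKCZ was the member that passed the test over lines under every setting tried. No setting left out both F36P and KASUMI1, where its rise is partly fixed by the filter. PRKCQ has a single window, chr10:6580647-6580896 on the minus strand, and stands beside PRKCZ as the member that moved the other way. Each run holds the 250 bases before the start, 5′ to 3′, with the letters CCAAT or their reverse complement ATTGG, the CCAAT box, in capitals.
PRKCZ: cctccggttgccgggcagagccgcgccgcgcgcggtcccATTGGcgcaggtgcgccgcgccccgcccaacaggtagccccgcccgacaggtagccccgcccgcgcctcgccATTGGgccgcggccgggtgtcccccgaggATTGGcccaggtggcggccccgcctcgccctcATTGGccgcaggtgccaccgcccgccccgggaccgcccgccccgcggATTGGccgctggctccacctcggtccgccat
PRKCQ: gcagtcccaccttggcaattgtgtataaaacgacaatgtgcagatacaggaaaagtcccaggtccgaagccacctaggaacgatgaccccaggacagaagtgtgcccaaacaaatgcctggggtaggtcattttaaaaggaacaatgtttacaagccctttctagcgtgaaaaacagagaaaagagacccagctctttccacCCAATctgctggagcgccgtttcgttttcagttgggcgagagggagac
The first PRKCZ window held 5 such matches, all distinct from its 7 matches to the GC box (GGGCGG or CCGCCC), and 79.6% of its bases were G or C. The other 3 windows of PRKCZ each held 0 CCAAT matches, with 1, 0 and 0 GC boxes. The PRKCQ window held 1 CCAAT match, 0 GC boxes and 1 TATA box (TATAAA or TTTATA), with 49.2% G or C. Of 35116 such windows of 27305 genes, 32.0% held at least 1 CCAAT match, 0.319% held 5 or more, 42.6% held a GC box, 4.15% held 5 or more GC boxes, and 10.7% held a TATA box. PRKCD, PRKCE, PRKCH, PRKCI, PRKCA, PRKCB and PRKD3 had 0 CCAAT matches in their windows, and each of the 2 windows of PRKD2 had 1.

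PRKCQ was lower with etoposide in 9 of 10 lines. In F36P, where it was most abundant, the untreated libraries held 109, 108 and 107 CPM and the etoposide libraries 54.3, 49.2 and 56.8, a log2 fold change of -0.90 ± 0.12 (adjusted p = 9.55e-05). In MOLM13 it fell from 7.25, 6.67 and 6.71 CPM to 4.22, 4.08 and 4.21 (log2 fold change -0.70 ± 0.12, adjusted p = 0.000899). In HL60 it fell from 9.76, 9.05 and 9.65 CPM to 7.12, 6.04 and 5.04 (log2 fold change -0.64 ± 0.16, adjusted p = 0.00656). The groups did not overlap in any of these lines. No change reached 2-fold, although with no filter on low counts F36P did (-1.01, adjusted p = 6.79e-10).

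NB4 (log2 fold change -0.64 ± 0.15), NOMO1 (-0.37 ± 0.11) and MV411 (-0.24 ± 0.10) also passed the adjusted p, at 0.00209, 0.0165 and 0.0357. The values of OCIAML3 (-0.53), THP1 (-0.12) and KASUMI1 (-0.12) did not, nor did that of MONOMAC6 (0.32), the line with the lowest level. Scaling by library size alone turned the sign in KASUMI1, and leaving out the first etoposide library did so in THP1. The mean over lines was -0.39, with an exact sign-flip p of 0.0117 and an adjusted p of 0.0312, which rose to 0.0568 without F36P, 0.0729 with library size alone and 0.0603 without the second replicate. With library size alone PRKCI passed in its place, at a mean of 0.26 (adjusted p = 0.0400), against 0.15 (adjusted p = 0.122) with TMM.

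PRKCB, the most abundant conventional isoform, fell in 5 lines and rose in 2. In F36P it went from 268, 250 and 286 CPM to 60.2, 59.5 and 64.7 (log2 fold change -2.02 ± 0.12, adjusted p = 1.57e-06). In KASUMI1 it went from 138, 131 and 129 CPM to 59.2, 50.4 and 57.9 (log2 fold change -1.19 ± 0.09, adjusted p = 3.67e-06). These were the largest falls in the family, with the groups far apart in both lines.

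Smaller falls were seen in NB4, from 369, 356 and 351 to 278, 232 and 246 CPM (log2 fold change -0.51 ± 0.08), in MONOMAC6, from 318, 292 and 304 to 222, 217 and 214 (-0.48 ± 0.04), and in NOMO1, from 194, 198 and 192 to 155, 119 and 152 (-0.45 ± 0.10). Their adjusted p-values were 8.76e-05, 2.04e-06 and 0.00237. MOLM13 went the other way, from 139, 129 and 120 CPM to 159 in each etoposide library (log2 fold change 0.32 ± 0.07, adjusted p = 0.00309), as did HL60, from 69.9, 69.1 and 65.4 to 92.5, 90.6 and 71.6 (0.32 ± 0.11, adjusted p = 0.0327). OCIAML3, THP1 and MV411 did not pass the test, and the mean over lines of -0.43 had an exact sign-flip p of 0.0703.

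PRKCA took opposite courses in the 2 lines at the ends of its range. In KASUMI1 it fell from 139, 125 and 123 CPM to 65.1, 49.6 and 59.0 (log2 fold change -1.10 ± 0.11, adjusted p = 2.31e-05), a change of -0.92, under 2-fold, with library size alone. In F36P it rose from 1.60, 1.41 and 0.948 CPM to 2.92, 2.42 and 2.30 (log2 fold change 1.06 ± 0.23, adjusted p = 0.00269). That call ended without the filter on low counts (0.95), without the third untreated library (0.78) and without the first etoposide library (0.94).

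MOLM13 (log2 fold change 0.90 ± 0.11, adjusted p = 6.06e-05) and MV411 (0.38 ± 0.07, adjusted p = 4.00e-05) also gained PRKCA, under 2-fold. In MOLM13 the libraries held 25.3, 22.0 and 18.8 CPM before and 40.5, 42.3 and 38.6 after, without overlap, and leaving out the first untreated library took the value past 2-fold, to 1.01. The other 6 lines did not pass the test for PRKCA.

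PRKCH was too scarce for a test in 6 of the 10 lines. The study selected it for predicted essentiality and for its induction in these same libraries, so its calls are no independent evidence. In THP1, where it was well read, it rose from 5.27, 4.95 and 6.01 CPM to 10.0, 8.75 and 10.98, without overlap (log2 fold change 0.87 ± 0.17, adjusted p = 0.000638). F36P was the single line called induced, from 0.309, 0.354 and 0.167 CPM to 0.584, 1.04 and 0.506, that is from 14 to 45 reads (log2 fold change 1.44 ± 0.43, adjusted p = 0.0143). No untreated library of F36P met the filter, so the gene was tested through its etoposide libraries alone. The call ended without the third untreated library (1.09, adjusted p = 0.0574) or the second etoposide library (1.09, adjusted p = 0.0583).

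KASUMI1, the line with most PRKCH, held 9.65, 8.92 and 8.39 CPM untreated and 9.42, 9.49 and 8.21 with etoposide, which overlapped (log2 fold change 0.06 ± 0.12, adjusted p = 0.68). NOMO1 went from 0.307, 0.745 and 0.433 CPM to 0.996, 1.14 and 0.656 and did not pass the test (0.90 ± 0.37, adjusted p = 0.0598), although it did without the second untreated or the third etoposide library. Of the lines without a test, MONOMAC6 had 4 reads before and 35 after, MOLM13 8 and 25, and HL60 0 and 1.

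MV411 had 0 reads untreated and 10 with etoposide, at least 2.53-fold higher on the TMM scale against a floor of 3 reads over the group. OCIAML3 had 1 and 10 reads, a ratio of 9.34 with an exact interval of 1.33 to 406, and NB4 had 1 and 8 reads, a ratio of 6.68 with an interval of 0.895 to 296, which includes 1. These few reads decide how many lines are called. With no filter on low counts 4 lines were called (F36P, MOLM13, MONOMAC6 and MV411), in 1 fit of the 60 libraries 5 (these and OCIAML3), and with a mean of at least 5 CPM 0. PRKCH-AS1, on the opposite strand, held 26 reads in the 66 libraries.

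The promoter window of PRKCH, chr14:61321329-61321578 on the plus strand of GRCh38.p14 from RefSeq, is given as that of the gene the study selected. It held 0 CCAAT and 0 TATA box matches and 1 GC box, so no letters are in capitals, and 75.2% of its bases were G or C.
PRKCH: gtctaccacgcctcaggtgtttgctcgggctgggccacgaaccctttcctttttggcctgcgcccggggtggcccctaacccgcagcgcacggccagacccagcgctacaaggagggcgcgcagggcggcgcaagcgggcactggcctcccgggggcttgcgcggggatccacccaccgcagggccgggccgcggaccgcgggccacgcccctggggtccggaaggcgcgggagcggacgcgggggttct

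**Figure D3:**
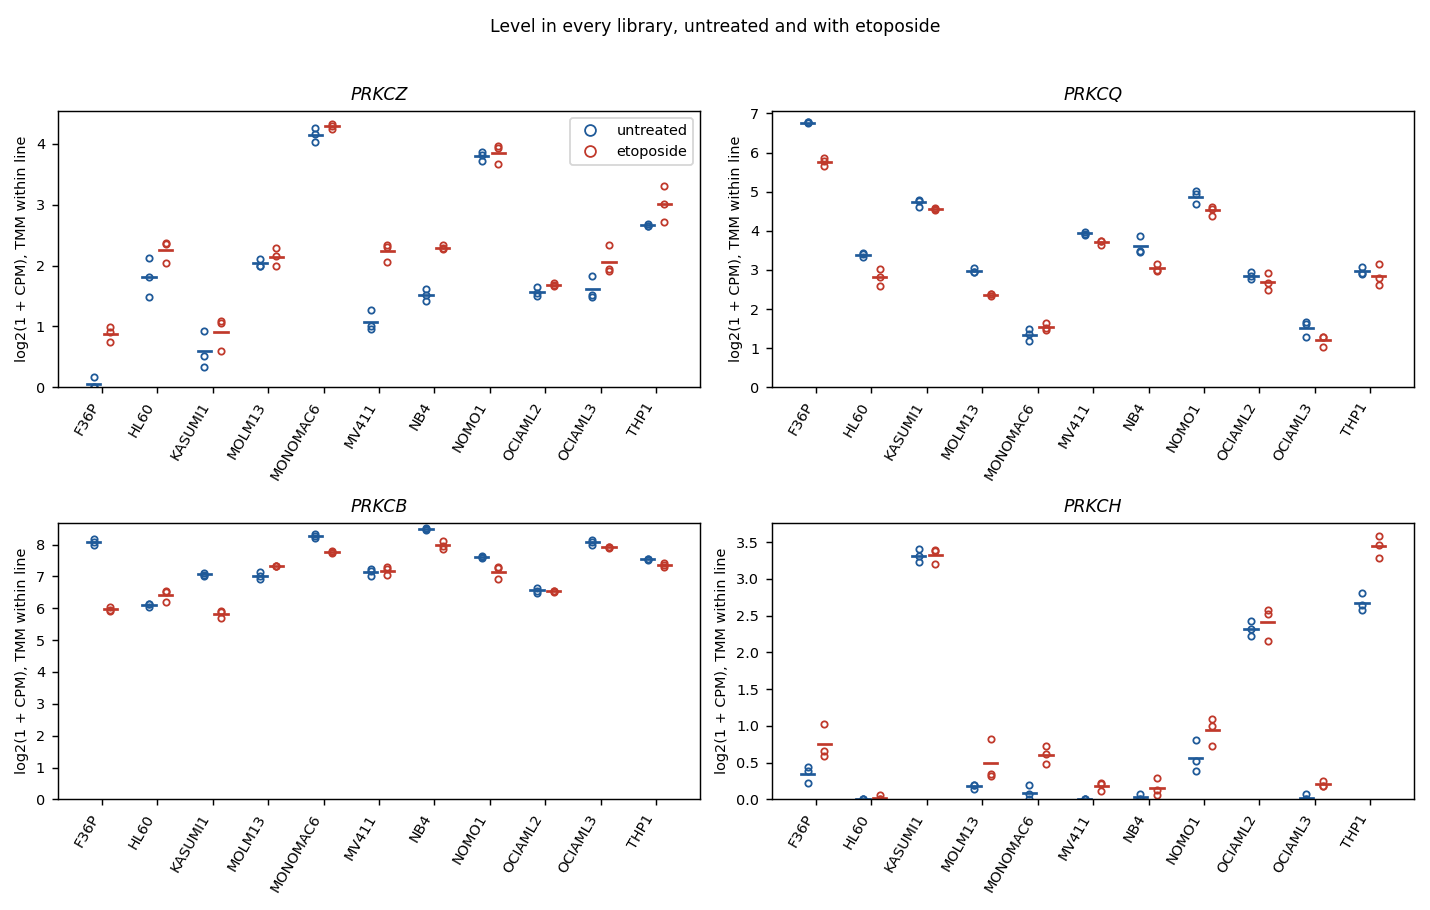
Level of PRKCZ, PRKCQ, PRKCB and PRKCH (y axis, log2 of 1 + CPM, scaled within each line) in every library of the 11 lines (x axis), untreated in blue and with etoposide in red, with bars at the mean of the 3 plotted values. PRKCB fell furthest in F36P and KASUMI1, PRKCH was near 0 in most lines, and the OCIAML2 groups lay side by side for all 4 genes.

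PRKCD rose most in the 2 lines that had least of it. In KASUMI1 it went from 10.9, 13.2 and 12.4 CPM to 40.7, 40.6 and 37.9 (log2 fold change 1.77 ± 0.10, adjusted p = 1.02e-06). In F36P it went from 14.8, 11.9 and 13.5 CPM to 22.2, 25.5 and 26.1 (log2 fold change 0.99 ± 0.13, adjusted p = 0.000124), just under 2-fold. It was past 2-fold with library size alone (1.24), with a mean of at least 5 CPM (1.15), in 1 fit of the 60 libraries (1.03) and without the first etoposide library (1.05). The groups did not overlap in either line, and with etoposide both lines stayed below the untreated level of every other line, each on its own line's scale.

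Lines with much PRKCD showed small differences. NOMO1 fell from 161, 162 and 157 CPM to 134, 107 and 121 (log2 fold change -0.40 ± 0.09, adjusted p = 0.00269). NB4 passed narrowly (-0.20 ± 0.08, adjusted p = 0.0477), with 0.01 when scaled by library size alone. The other 6 lines did not pass the test. MONOMAC6, where the replicate numbers were taken to pair the libraries, had 0.08 at an adjusted p of 0.150. With the replicate number as a block its adjusted p was 0.0186, and this pass rests on that assumed pairing.

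PRKCE moved in opposite directions in 2 lines. It fell in F36P, the line with most of it, from 38.8, 31.7 and 31.9 CPM to 14.2, 15.3 and 15.8 (log2 fold change -1.06 ± 0.12, adjusted p = 5.34e-05), under 2-fold with library size alone (-0.82) or a mean of at least 5 CPM (-0.90). It rose in NB4 from 0.403, 0.998 and 0.511 CPM to 1.29, 1.55 and 1.73 (log2 fold change 1.26 ± 0.33, adjusted p = 0.0037), from 35 to 101 reads, with 1 untreated library at the filter. No other line passed the test, except with the replicate number as a block, MOLM13 (0.35, adjusted p = 0.0340) and MONOMAC6 (-0.23, adjusted p = 0.0430), and KASUMI1, with 10 and 33 reads, was not tested.

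PRKD2 was called induced in F36P alone, from 69.4, 57.3 and 55.6 CPM to 102, 103 and 134 (log2 fold change 1.01 ± 0.14, adjusted p = 0.000163). This value sat on the 2-fold limit and fell under it with RLE scaling (0.96), DESeq2 (0.96), no filter on low counts (0.89) and the leaving out of the second (0.96) or the third (0.86) untreated or the third etoposide library (0.86). KASUMI1 went from 18.7, 20.03 and 21.3 CPM to 30.2, 35.9 and 35.5 (0.81 ± 0.10, adjusted p = 0.000108). MONOMAC6 rose by less (0.40 ± 0.09, adjusted p = 0.00305), and NB4 fell (-0.31 ± 0.11, adjusted p = 0.0296).

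PRKD3 rose in MONOMAC6 from 122, 101 and 109 CPM to 157, 140 and 147 (log2 fold change 0.43 ± 0.07, adjusted p = 0.000178), in MV411 (0.35 ± 0.06, adjusted p = 5.09e-05) and in KASUMI1 (0.43 ± 0.14, adjusted p = 0.0246). In MOLM13 it fell from 73.5, 66.1 and 70.3 CPM to 48.4, 35.9 and 40.6 (-0.73 ± 0.10, adjusted p = 0.000234). PRKCI behaved alike in direction in these lines, with rises in MONOMAC6 (0.37 ± 0.06), MV411 (0.31 ± 0.07) and NOMO1 (0.32 ± 0.11) and a fall in MOLM13 (-0.32 ± 0.12), at adjusted p-values of 0.000319, 0.000511, 0.0300 and 0.0403. No change of either gene reached 2-fold. NDUFAF7 lies on the opposite strand of PRKD3 and held 39756 reads.

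The response to etoposide was unequal between the 10 lines for 10 of 10 members (edgeR F-test of the line by treatment term in the 60 libraries), as it was for 74.5% of all genes tested. The adjusted p was smallest for PRKCB (4.35e-23) and PRKCD (4.45e-20) and largest for PRKCI (0.0189). For PRKCH the fit included lines too scarce for a test of their own, such as MV411, with 0 reads untreated and 10 with etoposide. PRKCI was the member lost without the second or the third replicate, at an adjusted p of 0.189 and 0.297.

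The make-up of the family per kilobase changed most in the same 2 lines. In F36P the conventional isoforms went from 26.0 ± 0.86% to 8.38 ± 0.13% of the summed CPM per kb of the 10 members, and the PKD genes from 21.1 ± 1.4% to 41.4 ± 1.4%. The nPKC share there fell from 41.6 ± 2.2% to 33.1 ± 0.10%, and the sum itself from 93.8 ± 3.8 to 69.2 ± 3.8 CPM per kb. In KASUMI1 the conventional share went from 41.8 ± 1.3% to 18.8 ± 1.0%, and the nPKC share from 20.1 ± 1.5% to 29.6 ± 2.3%. The PKD share rose there as well, from 25.3 ± 1.8% to 36.7 ± 1.0%. In MOLM13 the conventional share rose instead, from 19.0 ± 1.1% to 24.1 ± 1.1%. These shares were not tested, since 3 libraries against 3 cannot give an exact permutation p under 0.10, and each of these pairs differed by more than the larger SD.

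**Figure D4:**
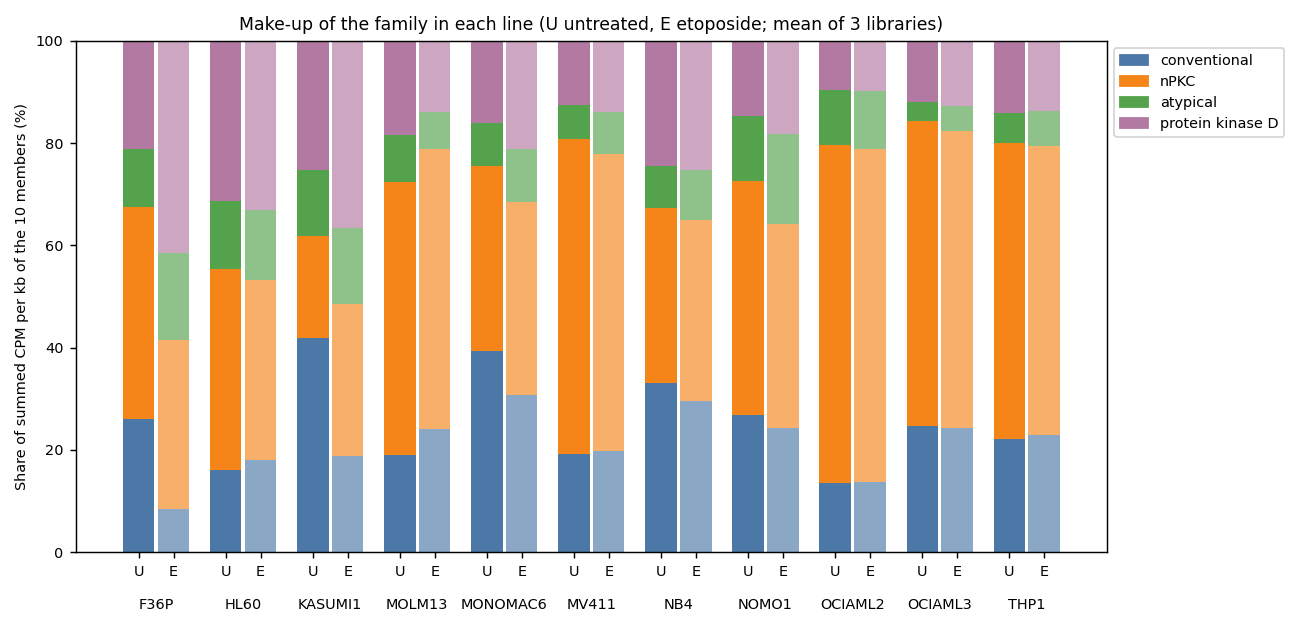
Share of the summed CPM per kb of the 10 members (y axis, %) held by the conventional, nPKC, atypical and PKD genes in each line, untreated (U) beside etoposide (E, paler), as the mean of 3 libraries. In F36P and KASUMI1 the conventional share was lower with etoposide, and the OCIAML2 bars were nearly the same height in both conditions.

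Other genes of the pathway, from lists chosen by function, were counted in the same way, beside 11.1% of all gene-line pairs induced and 3.96% repressed. Of the other diacylglycerol receptors 21 of 67 gene-line pairs were induced and 4 repressed. Pairs with few untreated reads passed the filter only through their etoposide libraries, so a rise in them is partly fixed by the filter. RASGRP3, an exchange factor for Ras, was induced in 9 of the 9 lines where it was tested, between 1.07 in THP1 and 4.97 in MV411 on the log2 scale, the latter from 2 reads. F36P and HL60, with 18 and 14 untreated reads of RASGRP3, also passed the filter only through etoposide libraries. OCIAML3, with 9 and 20 reads, was not tested. UNC13A, a vesicle priming factor, was induced in 5 lines, and RASGRP2 was repressed in 2, MONOMAC6 and NB4. In OCIAML3 and MV411 UNC13A had 18 and 27 untreated reads and likewise passed only through its etoposide libraries.

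Of the phospholipase C enzymes 17 of 82 pairs were induced and 1 repressed, with PLCD3 in 4 lines and PLCD1 in 3. Of the diacylglycerol kinases, which remove the lipid, 7 of 72 were induced and 0 repressed, and DGKA made up 4 of them. The CARD, BCL10 and MALT1 complex, which PRKCB and PRKCQ act on in lymphocytes, had 10 of 45 induced and 0 repressed, with the scaffold CARD10 in 3 lines.

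Of the substrates 14 of 106 pairs were induced and 2 repressed, with NRGN and ADD3 in 3 lines each. The partners of atypical PKC had 8 of 73 induced and 5 repressed. SQSTM1, the p62 scaffold, was induced in 4 lines and LLGL2 in 2, whereas WWC1 was repressed in 3 lines and the polarity protein PARD3 in 2. Of the upstream kinase, phosphatases and anchors 6 of 83 were induced, with the anchors AKAP12 in 3 lines and PICK1 in 2, and 3 repressed, with the chaperone HSP90AA1 in 2. In KASUMI1 and NOMO1 AKAP12 had 3 and 24 untreated reads and passed the filter only through its etoposide libraries.

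Of the remaining PKC, PKD and PKC-related kinases 2 of 32 pairs were induced and 0 repressed. PRKD1 had at most 3 reads in any group outside F36P, which held 133 untreated and 193 with etoposide. Median log2 fold changes of the 8 lists lay between 0.04 and 0.38, beside 0.01 for all gene-line pairs.

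Markers of blood cell types moved in the same 10 lines. Of the 6 monocytic markers 28 of 50 gene-line pairs were induced and 2 repressed, and their summed level, from 7.80 to 4571 CPM untreated (median 596) and from 18.1 to 5399 with etoposide (median 963), was higher in 8 of 10 lines. Of the 6 granulocytic and promyelocytic markers 2 of 53 were induced and 16 repressed. Their sums ran from 47.8 to 29846 CPM untreated and from 147 to 14511 with etoposide, and were higher in 4 of 10 lines. The 8 erythroid markers, of which 2 of 33 pairs were induced and 9 repressed, summed to between 241 and 8520 CPM untreated and between 99.9 and 4595 with etoposide, lower in 10 of 10 lines. TFRC, the transferrin receptor, which is not confined to erythroid cells, made up 6 of the 9 repressed pairs, and without it the sum had a median of 17.5 CPM untreated and 20.1 with etoposide and was higher in 5 of 10 lines. F36P held the highest level of each of the 8.

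The T cell (6 of 14 pairs induced, 0 repressed), B cell (8 of 19 induced, 1 repressed) and stromal lists (10 of 12 induced, 0 repressed) summed to medians of 0.160, 4.97 and 0.428 CPM untreated and 1.34, 10.9 and 2.05 with etoposide, while the myeloid list had 1 of 30 induced and 0 repressed. Pairs near 0 CPM untreated passed the filter only through their etoposide libraries, so their rises are partly fixed by it. Such were LCK in F36P and COL1A1 in NB4, at 0 CPM untreated, and the monocytic FCGR1A in F36P, at 0.0167. The T cell sum reached 193 CPM untreated and 251 with etoposide in its highest line. No marker was at 0 reads in all 60 libraries. The share of reads on mitochondrial genes had a median of 5.22% (3.53 to 6.54%) untreated and 6.01% (4.18 to 7.23%) with etoposide over the 10 lines. The part of any of these in the changes of the PKC and PKD genes was not tested.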

How the data were processed

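Total RNA of 11 AML cell lines, 3 untreated and 3 etoposide libraries each, was made into stranded mRNA libraries and sequenced single-end. Per the labels and the methods, the authors checked reads with FastQC 0.11.5, used STAR 2.5.3a for mapping to GRCh38.p7 (gencode release 25), and ran edgeR 3.20.1. Deposited were unnormalized read counts per gene, 1 column per library. Reads fell on 463 of the 707 genes that lie wholly within an exon of a gene on the other strand, and the column was therefore taken as counted by strand. After 45 pseudoautosomal Y copies without reads were left out, 57992 identifiers were analysed, 56948 of them named, placed and measured for exon length by gencode release 44. Groups came from the sample titles. Depth is given with the results, and it limits precision for members of few reads.

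Counts were tested in R 4.3.3 with edgeR 4.0.16: per line, filterByExpr (minimum count 10, minimum total 15), TMM scaling, the quasi-likelihood test, and Benjamini-Hochberg adjustment over all genes of the line. Genes past an FDR of 0.05 and changed by more than 2-fold were called. The SE of a log2 fold change is its size divided by the root of F. Unequal responses were tested in 60 libraries, untreated levels in 33, and the mean over lines by an exact sign flip over 10 lines for all genes tested in each. CPM was scaled by TMM within a line, or over the 33 untreated libraries for untreated levels. The exact intervals and floors (3 reads), on TMM-scaled depth, cover counting error only. DESeq2 1.42.0 and the edgeR exact test were alternatives, with other scalings, filters, 1 joint fit, a replicate block and libraries left out. The scripts were tested on simulated data. Python 3.11.15, scipy 1.17.1 and matplotlib 3.10.9 made the remaining values and figures.

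The members and gene lists were chosen with earlier results of these data known. Of each list the up to 2 genes called in each direction in the most lines, and at least in 2, were named, except that some items are not reported here. PRKCH was to be matched to other genes by its change over 10 lines as well, which could not be done with a test in 4 of them. No 2 replicates differed by as little as sampling noise (lowest chi-square per degree of freedom 2.05). Replicate numbers were taken to pair libraries in MOLM13, MONOMAC6, NB4 and OCIAML2, where untreated and etoposide libraries of the same number departed together from the means of their groups (r over 0.1 for each of the 3 pairs, lowest 0.10). The sample titles state no such pairing, and r was as low as -0.68 in OCIAML3.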

Additional observations from a re-analysis of the deposited data

Results flagged for a closer look

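The response to etoposide differed between the 10 lines for every member by the edgeR F-test of the line by treatment term, as for 74.5% of all genes. The adjusted p was 4.35e-23 for PRKCB, 4.45e-20 for PRKCD, 7.19e-14 for PRKCA, 2.91e-10 for PRKCE and 1.39e-09 for PRKD2. It was 8.74e-08 for PRKCZ, 2.07e-05 for PRKCQ, 0.000126 for PRKD3, 0.000135 for PRKCH and 0.0189 for PRKCI. Each of the other 7 members had lines past the adjusted p in both directions, whereas no line passed it downwards for PRKCZ and PRKCH or upwards for PRKCQ. PRKCH was chosen by the study on these libraries and was too scarce for a test of its own in several lines of this fit. The dose of etoposide and the culture conditions differed between lines.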

How the results depend on the processing

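The 8 induced and 4 repressed member-line calls became 3 induced with a mean of at least 5 CPM, which tests fewer genes, 14 induced in 1 fit of the 60 libraries, 2 repressed with library size alone, 23 and 18 with no fold change minimum, and 4 and 2 without F36P, a setting chosen after seeing the data. The single line with PRKCH called became 4 with no filter on low counts, 0 with a mean of at least 5 CPM, 5 in the joint fit, 2 with no fold change minimum, and 0 to 3 as 1 replicate was left out. The 2 members with a change in 1 direction over lines became 1 without F36P and 1 to 2 as a replicate was left out, and with library size alone PRKCI took the place of PRKCQ. Beyond what the filters themselves decide, the cause was not tested. The other settings left these counts within 1.5 times, and unequal untreated levels held for 10 members and unequal responses for 9 to 10 in every setting.

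Library size alone moved PRKCQ in KASUMI1 to 0.0534 and PRKCD in NB4 to 0.00661 on the log2 scale, and leaving out a library gave -0.00623 to 0.137 for PRKCZ in NOMO1 and -0.286 to 0.0152 for PRKCQ in THP1. Of 93 member-line pairs 20 changed sign in some setting, 1 of them past the adjusted p as reported, and 0 sign changes passed it under the alternative. With the replicate block 7 pairs were induced and 4 repressed (PRKD2 in F36P was lost, at 1.00), and PRKCH was called in 1 line. In the lines where the numbers were taken to pair the libraries the block changed no call of over 2-fold. Few reads limit PRKCH, PRKCZ and, in NB4 and KASUMI1, PRKCE.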
